A study of Homo sapiens with 6 samples.

Results

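Kinetochore and spindle checkpoint genes are described here as 38 genes, chosen by name: the CENP proteins of the centromere, the KMN network, the SKA complex, and the proteins of the spindle assembly checkpoint with their recruiting factors. All 38 are among the 19655 genes of the deposited counts, and all 38 passed the filter on low counts. The RNA came from cells labelled HCT116, a long-established line from a human colorectal carcinoma. There were 3 libraries after treatment by an antisense oligonucleotide targeting SNORA67 (ASO) and 3 from control cells (NC). SNORA67 belongs to the H/ACA small nucleolar RNAs, which direct the change of uridine to pseudouridine. An antisense oligonucleotide is a short strand complementary to its target RNA, which cells may then degrade. The sources used here give neither the oligonucleotide's sequence or dose, nor the time of harvest, nor what the NC cells received. No label says whether the libraries of a group came from separate cultures, so the p-values measure the spread between libraries, which may be technical.

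Total counts ran from 49136502 to 54905215 per library. SNORA67 itself was not analysed here, and EIF4A1, the translation initiation helicase gene that hosts it, averaged 617 ± 46.3 CPM in ASO and 1544 ± 55.3 CPM in NC (SD, n = 3 each). CPM are counts scaled to library size with TMM factors, which align libraries on genes of middling change. The colon epithelial label was only partly borne out by markers. KRT8 and KRT18 were abundant in every library, but 3 of 12 epithelial markers in ASO and 6 of 12 in NC averaged under 1 CPM. EPCAM averaged 2.93 CPM in ASO and 4.37 CPM in NC, CDH1 1.81 and 1.06 CPM, and CDX2 0.191 and 0.311 CPM. At 10 CPM or more stood 4 of 12 epithelial markers in ASO and 3 of 12 in NC, among them ELF3 (53.3 CPM in ASO and 69.2 CPM in NC). Of 10 mesenchymal markers, 5 (VIM, COL1A1, COL5A1, THY1 and PDGFRB) averaged 10 CPM or more in both groups. Under 1 CPM were 1 of the 10 in ASO and 2 of the 10 in NC. The identity of the line was not tested. The 12 epithelial markers summed to 1713 to 2257 CPM in ASO against 1986 to 2287 CPM in NC, overlapping ranges made up mostly of KRT8 and KRT18. Over all genes tested by edgeR, 26.8% were called higher in ASO and 19.1% lower. Of 11 epithelial markers tested 3 were called higher in ASO, near that share, and 8 were not called. Those called were LGALS4 (18.1 ± 2.65 CPM in ASO and 0.0066 ± 0.0114 CPM in NC), VIL1 (8.88 ± 6.97 CPM in ASO and 0.0674 ± 0.117 CPM in NC) and KRT19 (1.66 ± 0.398 CPM in ASO and 0.0503 ± 0.0872 CPM in NC). The 10 mesenchymal markers summed to 2854 to 3416 CPM in ASO against 2164 to 2440 CPM in NC. But of 9 tested 3 were called higher (COL5A1, COL1A1 and COL3A1) and 3 lower, where 26.8% and 19.1% of all genes were. Those lower were PDGFRB (41.0 ± 3.99 CPM in ASO and 101 ± 8.09 CPM in NC), LUM (1.87 ± 0.289 CPM in ASO and 4.53 ± 0.907 CPM in NC) and DCN (1.73 ± 0.150 CPM in ASO and 3.31 ± 0.366 CPM in NC). The 6 leukocyte markers summed to 12.4 to 13.9 CPM in ASO against 2.34 to 3.80 CPM in NC, with PTPRC and CD3E at 0 in all 6 libraries, and the 4 endothelial markers to 14.5 to 19.6 CPM in ASO against 9.59 to 10.7 CPM in NC, with KDR at 0 in all 6. Mitochondrially encoded genes took 1.89% to 2.66% of counts in ASO and 2.80% to 3.31% in NC. The part of these differences in the results below was not tested.

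The kinetochore is the protein assembly that joins each chromosome to the microtubules of the mitotic spindle. Its base is chromatin marked by the histone variant CENP-A, on which the constitutive CENP proteins sit, and its outer layer, the KMN network of KNL1, MIS12 and NDC80 complexes, binds the microtubule. Kinetochores that are not yet attached recruit the checkpoint kinases and MAD and BUB proteins, which restrain the anaphase-promoting complex until every chromosome is attached. Many of these genes are transcribed mainly in late S, G2 and M phase, so in bulk RNA fewer cells in these phases and less RNA per cell cannot be told apart.

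Kinetochore and checkpoint transcripts were on balance lower in ASO than in NC. By the quasi-likelihood test of edgeR, adjusted over all 14062 genes tested, 18 of the 38 members were lower in ASO, 1 was higher and 19 were not called at an adjusted p of 0.05. Over all genes tested, 19.1% were called lower and 26.8% higher. The median log2 fold change of ASO over NC was -0.49 over the members, with 30 of 38 below 0, and 0.01 over all genes tested. In 21 members the 3 ASO libraries all lay below the 3 NC libraries and in 2 they all lay above, where 25.9% and 31.6% of all genes did so. Summed over the members, the level was 1181, 1374 and 1166 CPM in the ASO libraries against 1630, 1825 and 1660 CPM in the NC libraries, and the groups did not overlap. CENPC, CENPI, CENPU, SKA2, BUB1 and BUB3 have annotated pseudogene copies, which could take or give reads, so their counts are less certain. Of the 38 members, 11 stayed called lower with each of the 6 libraries left out in turn and with an offset for GC content and length. That held for 9.80% of all genes tested. Among genes called lower with all libraries, it held for 11 of 18 members and for 1378 of 2692 genes. The 11 members were CENPI, CENPQ, CENPE, CENPF, DSN1, NUF2, SPC24, SPC25, BUB1, MAD2L1 and ZW10.

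**Figure D1:**
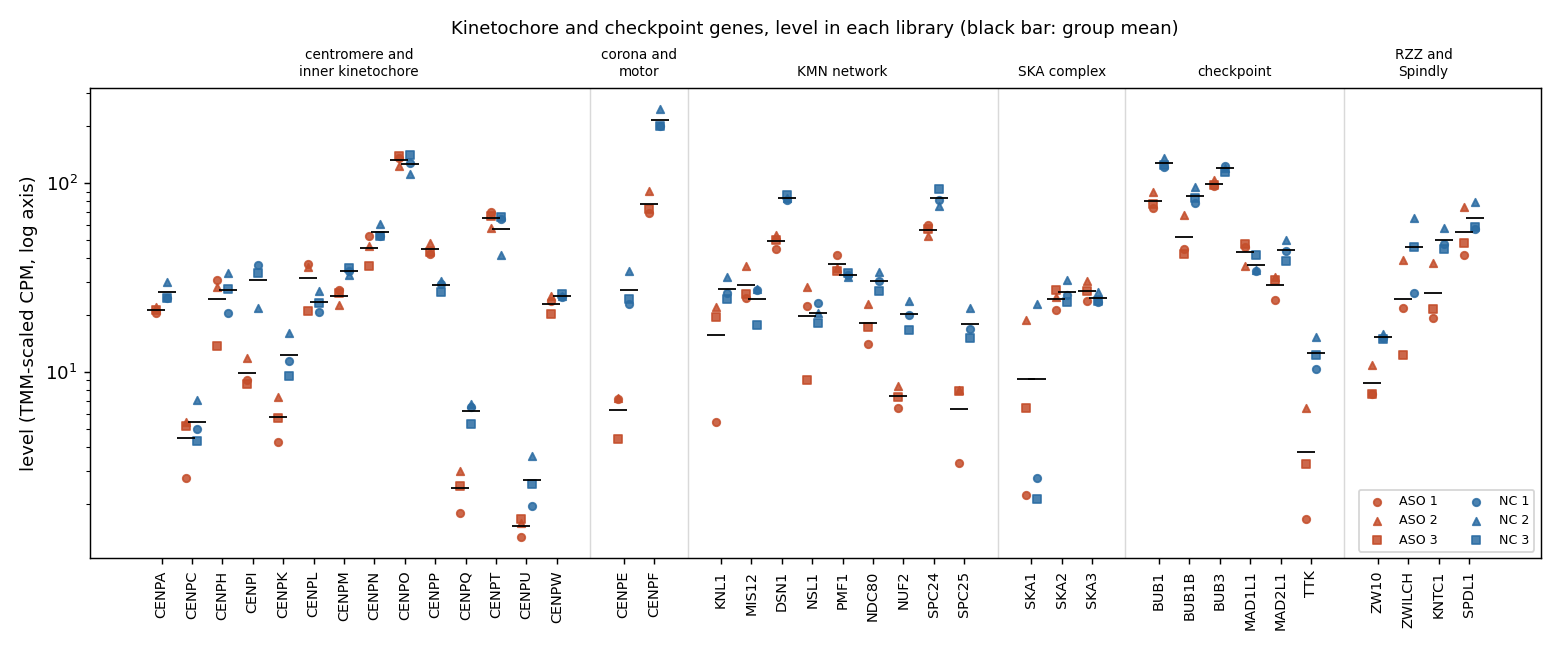
Level of each of the 38 genes in every library, as TMM-scaled CPM on a log axis, with ASO libraries in orange to the left of NC libraries in blue, the marker shape giving the replicate number and the black bar the group mean. CENPF, CENPE, NUF2 and DSN1 show ASO libraries well below all NC libraries, while the SKA genes overlap.

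**Figure D2:**
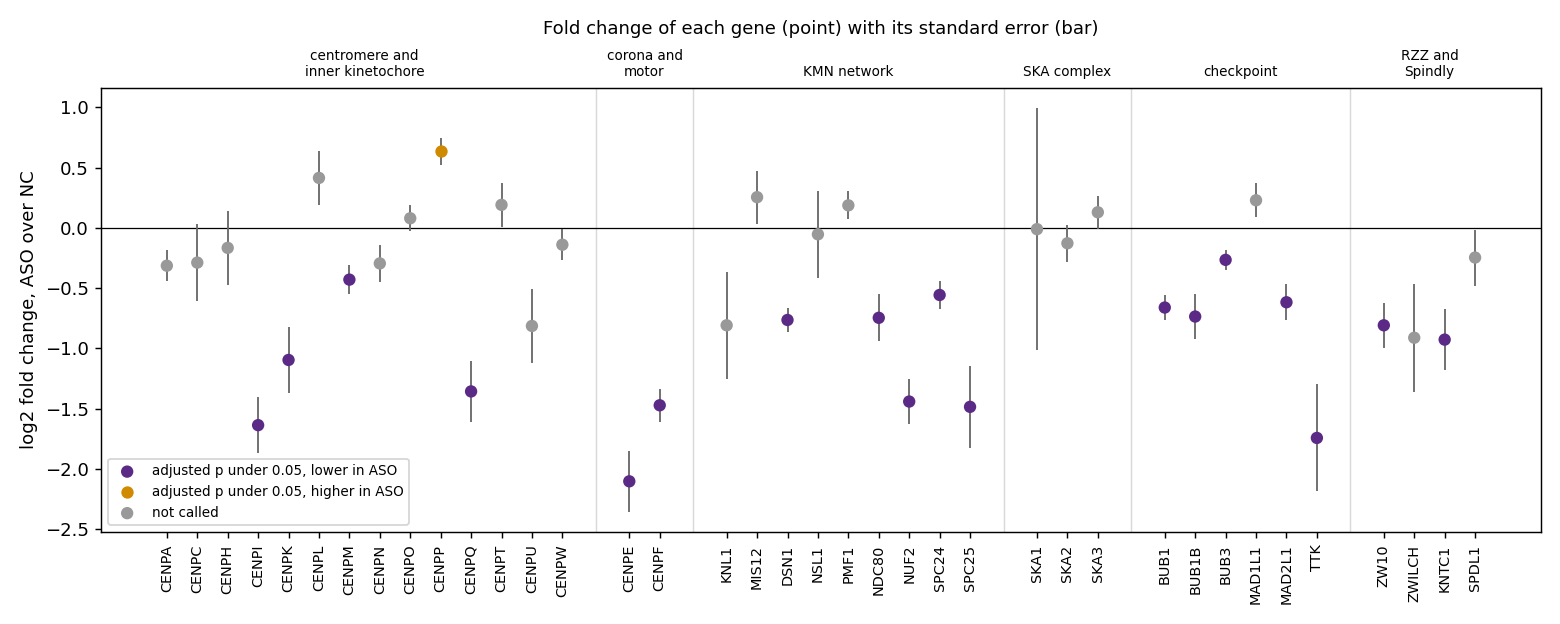
Fitted log2 fold change of ASO over NC for each gene, grouped by role, with its standard error as a bar and the colour giving the edgeR call. The values run from -2.10 for CENPE to 0.63 for CENPP, with 18 genes called lower and 1 called higher.

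Promoter sequence is shown because late cell cycle genes commonly share a pair of short elements, the CHR element near the transcription start, read by the DREAM and MuvB complexes, and the CCAAT box, read by NF-Y. RefSeq promoters of GRCh38.p14, 250 bases before to 50 after the start site, matched 31 of the 38 members; CENPH, CENPL, CENPM, KNL1, BUB3, TTK and KNTC1 did not match. The letters TTTGAA or TTCGAA, on either strand and counted with overlaps, stood in 16 of 31 member promoters (51.6%), against 13.5% of the 15226 promoters of genes in the deposited counts. They began within 50 bases of the start site in 14 members (45.2%), against 3.7% of those promoters. CCAAT, on either strand, stood in 18 members (58.1%) against 36.6%, and both elements in 10 members (32.3%) against 5.6%. An E2F motif (TTTCCCGC, TTTCGCGC, TTTGCCGC or TTTGGCGC, either strand) stood in 3 members (9.7%) against 4.5%. Of the members, 8 of the 16 with the CHR letters were called lower, with a median log2 fold change of -0.47, and 6 of the 15 without, with a median of -0.56. Among all genes tested with a promoter, 21.8% of those with the CHR letters and 19.7% of those without were called lower. A match of letters is a description and shows no binding.

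The promoters of CENPF, NDC80, SPC25 and BUB1, which fell and hold the CHR letters, are given with that of CENPP. CENPP is the member called higher and holds neither element. The printed promoters do not stand for all members. CENPE and DSN1 were called lower and hold neither element. The window of CENPI, also called lower, holds neither and is counted above among those without. It begins at chrX:101100808 (plus strand), inside the gene, which starts at 101098188 in the deposited counts, so it may miss the main promoter. CENPA, CENPC, CENPN, CENPO, CENPW, SKA1, SKA3 and SPDL1 hold the CHR letters and were not called. A link between elements and calls was not tested. Letters are 5′ to 3′ on the gene's strand and capitals mark CHR letters and CCAAT boxes (ATTGG on the other strand). The windows are chr1:214602945-214603244 (plus strand) for CENPF, chr18:2571307-2571606 (plus) for NDC80, chr2:168890381-168890680 (minus) for SPC25, chr2:110678014-110678313 (minus) for BUB1 and chr9:92325218-92325517 (plus) for CENPP. In NDC80 the pair of CHR matches adjoins across the start site, the first beginning 3 bases before it.
CENPF: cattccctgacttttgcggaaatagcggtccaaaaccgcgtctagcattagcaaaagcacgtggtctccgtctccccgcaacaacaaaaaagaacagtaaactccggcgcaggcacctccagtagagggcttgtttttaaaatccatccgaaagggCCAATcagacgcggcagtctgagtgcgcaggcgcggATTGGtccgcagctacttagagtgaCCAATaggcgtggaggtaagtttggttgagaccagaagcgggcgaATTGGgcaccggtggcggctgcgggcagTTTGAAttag
NDC80: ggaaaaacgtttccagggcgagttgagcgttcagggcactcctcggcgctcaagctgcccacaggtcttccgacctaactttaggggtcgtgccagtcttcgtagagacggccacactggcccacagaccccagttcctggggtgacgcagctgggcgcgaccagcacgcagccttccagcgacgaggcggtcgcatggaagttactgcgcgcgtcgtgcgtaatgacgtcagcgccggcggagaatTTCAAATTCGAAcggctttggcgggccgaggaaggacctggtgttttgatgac
SPC25: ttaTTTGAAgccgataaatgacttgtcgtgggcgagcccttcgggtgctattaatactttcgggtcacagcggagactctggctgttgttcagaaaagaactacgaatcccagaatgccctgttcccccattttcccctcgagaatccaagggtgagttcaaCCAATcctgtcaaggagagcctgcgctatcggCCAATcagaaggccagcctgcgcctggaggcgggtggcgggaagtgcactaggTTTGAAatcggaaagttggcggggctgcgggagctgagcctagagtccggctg
BUB1: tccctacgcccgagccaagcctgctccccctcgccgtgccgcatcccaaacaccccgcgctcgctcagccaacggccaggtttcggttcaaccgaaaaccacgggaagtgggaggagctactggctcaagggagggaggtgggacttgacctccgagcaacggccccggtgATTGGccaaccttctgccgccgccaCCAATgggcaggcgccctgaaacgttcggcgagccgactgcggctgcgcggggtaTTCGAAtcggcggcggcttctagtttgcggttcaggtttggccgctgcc
CENPP: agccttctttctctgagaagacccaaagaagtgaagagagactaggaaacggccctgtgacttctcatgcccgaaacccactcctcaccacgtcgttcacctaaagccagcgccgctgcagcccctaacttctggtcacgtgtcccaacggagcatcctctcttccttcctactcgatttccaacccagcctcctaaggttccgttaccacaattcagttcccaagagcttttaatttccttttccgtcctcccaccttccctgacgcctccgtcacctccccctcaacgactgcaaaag

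**Figure D3:**
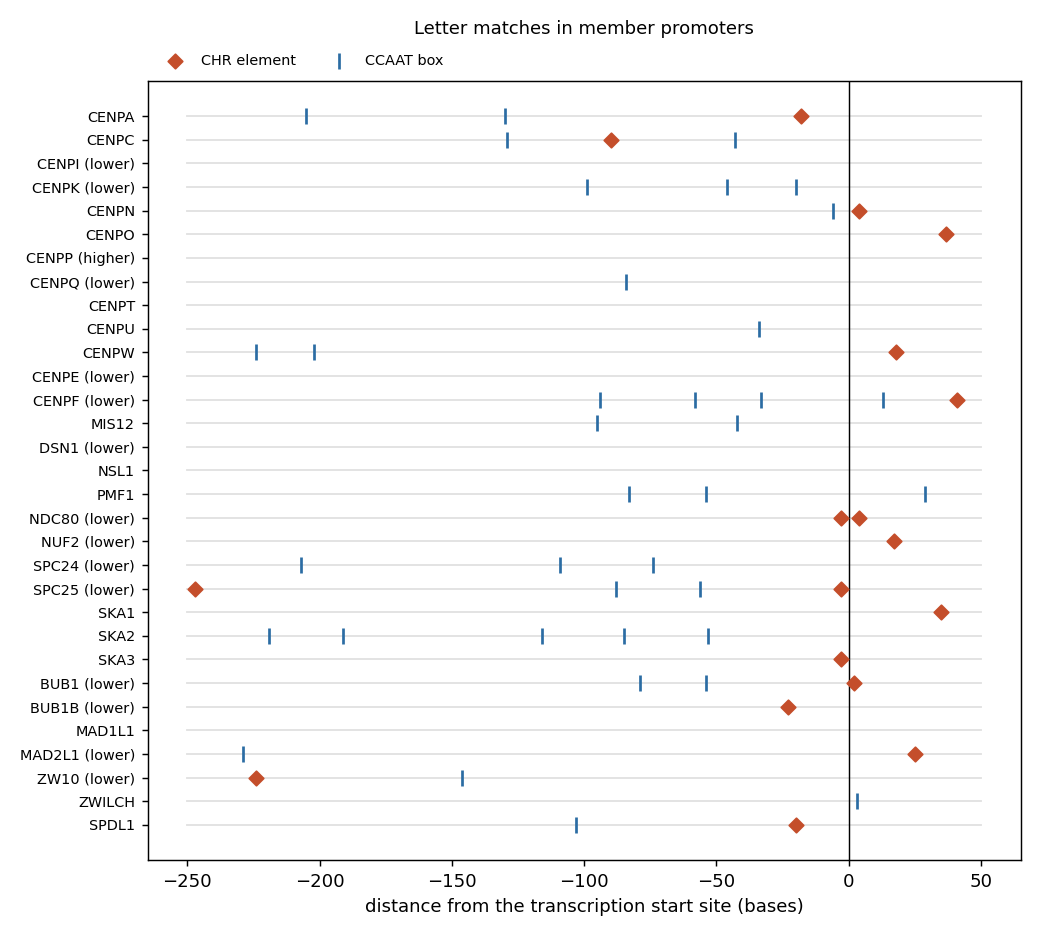
Positions of CHR letters (orange diamonds) and CCAAT boxes (blue ticks) in the promoters of 31 members, as distance in bases from the transcription start site (black line), with the edgeR call beside each name. Most CHR matches lie close to the start site, and members called lower occur both with and without them.

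Both corona and motor genes were called lower, where 19.1% of all genes tested were. Their median log2 fold change, -1.79, was the lowest of the 6 roles, but the role has only 2 genes, with a median GC content of 37.7%. CENPE is a kinesin that carries chromosomes along microtubules and tethers the kinetochore to them, and CENPF is a large coiled-coil protein of the outer corona that gathers in G2. CENPE stood at 7.21, 7.28 and 4.38 CPM in the ASO libraries, against 22.8, 34 and 24.3 CPM in the NC libraries. Every ASO library lay far below every NC library. Its fold change was 4.30-fold lower in ASO (log2 -2.10, SE 0.25, edgeR adjusted p = 4.75e-04), the largest fall among the members. CENPF stood at 68.9, 90.3 and 73.1 CPM in ASO and at 200, 245.5 and 199.5 CPM in NC. With 77.5 ± 11.3 CPM in ASO and 215 ± 26.4 CPM in NC it was 2.78-fold lower (log2 -1.47, SE 0.14, edgeR adjusted p = 1.25e-04), the smallest p among the members. With the GC and length offset the log2 fold changes were -1.58 for CENPE and -1.22 for CENPF, and both stayed called.

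In the KMN network, 5 of 9 genes were lower in ASO, where 19.1% of all genes tested were, and 4 were not called. The median log2 fold change was -0.75. All 4 subunits of the NDC80 complex, the rod that grips the microtubule, fell. NUF2, the partner of NDC80 at the microtubule end, stood at 6.43, 8.44 and 7.34 CPM in ASO against 19.97, 23.7 and 16.7 CPM in NC. It was 2.72-fold lower (log2 -1.44, SE 0.19, edgeR adjusted p = 7.17e-04). SPC25, at the kinetochore end of the rod, stood at 3.28, 7.98 and 7.88 CPM in ASO against 16.8, 21.7 and 15.1 CPM in NC. ASO replicate 1 was the lowest library, and the fall was 2.80-fold (log2 -1.49, SE 0.34, edgeR adjusted p = 0.00888). SPC24, its dimer partner, stood at 59.8, 52.1 and 57.2 CPM in ASO against 80.9, 75.5 and 92.7 CPM in NC. This smaller change of 1.47-fold was also called (log2 -0.56, SE 0.11, edgeR adjusted p = 0.00533). NDC80 averaged 18.1 ± 4.44 CPM in ASO and 30.3 ± 3.40 CPM in NC (log2 -0.75, edgeR adjusted p = 0.0154). Its call ended without NC replicate 1 (edgeR adjusted p = 0.0535), without NC replicate 2 (0.0609) and without ASO replicate 3 (0.0569).

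The MIS12 complex, which links the inner kinetochore to KNL1 and NDC80, had 1 subunit called lower. DSN1, its subunit that receives Aurora B phosphorylation, stood at 44.5, 53.3 and 49.97 CPM in ASO against 81.5, 83.0 and 86.8 CPM in NC. It was 1.70-fold lower (log2 -0.77, SE 0.10, edgeR adjusted p = 8.17e-04). PMF1 stood at 41.3, 35.4 and 34.3 CPM in ASO against 32.7, 31.7 and 33.2 CPM in NC. Its ASO libraries were all above its NC libraries, but the change was not called (log2 0.19, edgeR adjusted p = 0.221), and 587 of its 2520 exon bases are shared on the same strand with the PMF1-BGLAP read-through gene, which has its own row. MIS12 averaged 28.8 ± 6.37 CPM in ASO and 24.2 ± 5.54 CPM in NC (edgeR adjusted p = 0.374). NSL1 averaged 19.8 ± 9.77 CPM in ASO and 20.6 ± 2.45 CPM in NC (edgeR adjusted p = 0.916), with ASO replicate 3 at 9.04 CPM below the other libraries. KNL1, the scaffold for BUB proteins, had ASO replicate 1 at 5.44 CPM, against 22.1 and 19.4 CPM in the other ASO libraries and 26.05, 31.8 and 24.4 CPM in NC. Its groups did not overlap, yet with that spread it was not called (log2 -0.81, SE 0.44, edgeR adjusted p = 0.170).

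Levels per length (CPM per kb of transcript) differed within complexes. SPC24 averaged 24.4 CPM per kb in ASO and 35.9 CPM per kb in NC, while SPC25 averaged 4.71 and NUF2 4.01 CPM per kb in ASO, against 13.2 and 10.9 CPM per kb in NC. The per-length ratio of NDC80 to NUF2 was 1.86 to 2.30 in ASO libraries and 1.21 to 1.37 in NC libraries. The ratio of DSN1 to PMF1 was 0.516 to 0.720 in ASO and 1.19 to 1.25 in NC, and SPC24 to SPC25 ran from 3.82 to 10.7 in ASO and from 2.03 to 3.59 in NC. In each of these pairs the libraries of the groups did not overlap, and how often other gene pairs do so was not counted. Transcript GC was 53.4% for SPC24 and 40.03% for SPC25, and 56.2% for PMF1 and 43.1% for DSN1. With the GC and length offset, the log2 fold changes were -0.69 and -1.055 for SPC24 and SPC25 (-0.56 and -1.49 without it). They were -0.51 and 0.14 for DSN1 and PMF1 (-0.77 and 0.19) and -0.37 and -0.96 for NDC80 and NUF2 (-0.75 and -1.44). The part of base composition in the ratios was not tested. These ratios were chosen after values were seen and were not tested.

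**Figure D4:**
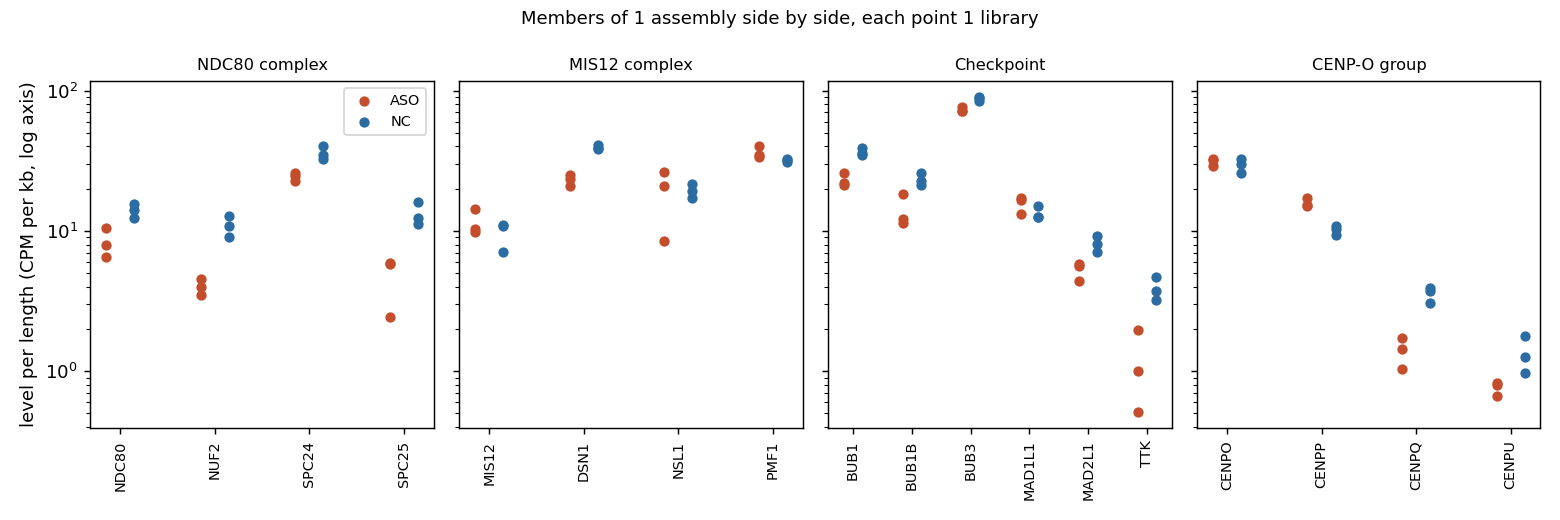
Levels per length (CPM per kb of transcript, log axis) of the NDC80 complex, the MIS12 complex, the checkpoint genes and the CENP-O group, each point 1 library, ASO in orange left of NC in blue. SPC24 stands above its 3 partners in both groups, and DSN1 and PMF1 change places between the groups.

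At the centromere and inner kinetochore, 4 of 14 genes were lower in ASO, 1 was higher and 9 were not called. Of all genes tested, 19.1% were lower and 26.8% higher. The median log2 fold change of these 14 genes was -0.29. CENPI, of the CENP-H/I/K/M group, stood at 9.09, 11.8 and 8.64 CPM in ASO against 37.0, 21.6 and 33.3 CPM in NC. NC replicate 2 was the lowest NC library and still above every ASO library, and the fall was 3.11-fold (log2 -1.64, SE 0.23, edgeR adjusted p = 0.00102). CENPQ, a CENP-O group subunit, stood at 1.79, 2.98 and 2.48 CPM in ASO against 6.51, 6.76 and 5.31 CPM in NC. It was 2.56-fold lower (log2 -1.36, SE 0.25, edgeR adjusted p = 0.00352). CENPK stood at 4.23, 7.32 and 5.70 CPM in ASO against 11.4, 16.1 and 9.47 CPM in NC (log2 -1.10, edgeR adjusted p = 0.0130). It has the lowest GC content of the members, 32.7%, and its call ended without NC replicate 2 (edgeR adjusted p = 0.0506) and with the GC and length offset (log2 -0.32, edgeR adjusted p = 0.0876). CENPM, with a GC content of 60.5%, averaged 25.3 ± 2.31 CPM in ASO and 34.1 ± 1.42 CPM in NC (log2 -0.43, edgeR adjusted p = 0.0200). Its call ended without NC replicate 1 (edgeR adjusted p = 0.0635), NC replicate 3 (0.0523) or ASO replicate 3 (0.0519), and with the offset it was lower with a log2 fold change of -0.59.

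CENPP, a CENP-O group subunit, was the member called higher. It stood at 42.3, 48.3 and 43.2 CPM in ASO against 29.3, 30.4 and 26.5 CPM in NC. The groups did not overlap and the rise was 1.55-fold (log2 0.63, SE 0.11, edgeR adjusted p = 0.00317). Of its 9794 annotated exon bases, 3719 overlap exons of IPPK on the opposite strand. IPPK, an inositol phosphate kinase gene, rose by nearly the same amount, with 37.7 ± 1.29 CPM in ASO and 24.5 ± 1.11 CPM in NC (1.54-fold, edgeR adjusted p = 0.00260). The strand setting of the counting is unknown here, so reads of CENPP and IPPK cannot be told apart. CENPO, the namesake of the group, shares 1488 of 5518 exon bases with ADCY3 on the opposite strand and stood at 133 ± 8.76 CPM in ASO and 126 ± 14.5 CPM in NC (edgeR adjusted p = 0.582).

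CENPA, the histone variant that marks the centromere, averaged 21.3 ± 0.83 CPM in ASO and 26.4 ± 2.97 CPM in NC, with every ASO library below every NC library, and was not called (log2 -0.31, SE 0.13, edgeR adjusted p = 0.0810). CENPW, a histone-fold partner of CENPT and the member of this group with the highest level per length, stood at 23.7, 25.1 and 20.2 CPM in ASO against 24.9, 25.3 and 25.8 CPM in NC (log2 -0.14, edgeR adjusted p = 0.398). CENPC, CENPH, CENPN and CENPT had overlapping groups and log2 fold changes of -0.29, -0.17, -0.30 and 0.19, none called. CENPL (log2 0.41, edgeR adjusted p = 0.170) was called higher without ASO replicate 3 (0.0232). CENPU, the scarcest member in counts with 72 in its lowest library, averaged 1.53 ± 0.17 CPM in ASO and 2.69 ± 0.83 CPM in NC (log2 -0.81, edgeR adjusted p = 0.0625), and was called lower without NC replicate 1 (0.0495). Per length, levels over all libraries in this group ran from 0.713 CPM per kb for CENPC to 45.7 CPM per kb for CENPW.

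Among the checkpoint genes, 5 of 6 were lower in ASO, where 19.1% of all genes tested were, with a median log2 fold change of -0.64. Without NC replicate 2 or ASO replicate 3 it was 2 of 6, where 12.7% and 12.4% of all genes were. TTK, the MPS1 kinase that starts checkpoint signalling, stood at 1.66, 6.42 and 3.24 CPM in ASO against 10.4, 15.3 and 12.2 CPM in NC. All ASO libraries were lower, but they spread widely, and the fall was 3.35-fold (log2 -1.74, SE 0.44, edgeR adjusted p = 0.0144). The call ended without NC replicate 2 (edgeR adjusted p = 0.0548) and without ASO replicate 3 (0.0557). BUB1, the kinase that recruits BUBR1 and shugoshin, stood at 73.9, 90.1 and 77.3 CPM in ASO against 121.0, 135.8 and 125.0 CPM in NC. It was 1.58-fold lower (log2 -0.66, SE 0.11, edgeR adjusted p = 0.00188). MAD2L1, which encodes MAD2 of the mitotic checkpoint complex, stood at 24.1, 31.6 and 30.7 CPM in ASO against 43.8, 50.04 and 38.8 CPM in NC. It was 1.54-fold lower (log2 -0.62, SE 0.15, edgeR adjusted p = 0.0121).

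BUB1B, which encodes BUBR1, stood at 44.5, 67.8 and 42.2 CPM in ASO against 78.7, 95.4 and 83.3 CPM in NC. ASO replicate 2 came nearest to the NC libraries, and the fall was 1.67-fold (log2 -0.74, SE 0.19, edgeR adjusted p = 0.0147), a call that ended without NC replicate 2 (0.0596) and without ASO replicate 3 (0.0554). BUB3, the carrier of BUB1 and BUBR1 and the member with the highest level per length (80.3 CPM per kb over all libraries), stood at 96.8, 103.8 and 97.2 CPM in ASO against 122.9, 120.7 and 114.5 CPM in NC. Its fall was small, 1.203-fold (log2 -0.27, SE 0.08, edgeR adjusted p = 0.0327). It held only without NC replicate 3 or ASO replicate 2, with edgeR adjusted p of 0.0854 to 0.123 without each of the other 4 libraries and 0.154 with the GC and length offset. MAD1L1, the anchor of MAD2 at kinetochores, was not called, with 43.0 ± 5.99 CPM in ASO and 36.7 ± 4.02 CPM in NC (log2 0.23, edgeR adjusted p = 0.225). It has the highest GC content of the members, 62.4%, and with the offset its log2 fold change was -0.08.

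The RZZ complex brings the motor dynein and MAD1 and MAD2 to kinetochores, and Spindly links it to dynein. ZW10 stood at 7.62, 10.9 and 7.64 CPM in ASO against 15.1, 15.9 and 14.9 CPM in NC. The groups were well apart and the fall was 1.75-fold (log2 -0.81, SE 0.18, edgeR adjusted p = 0.00900). KNTC1, which encodes ROD, stood at 19.4, 37.7 and 21.5 CPM in ASO against 47.6, 57.5 and 44.5 CPM in NC. It was 1.90-fold lower (log2 -0.93, SE 0.25, edgeR adjusted p = 0.0188), a call that ended without NC replicate 2 (0.0748) and without ASO replicate 3 (0.0718). ZWILCH stood at 21.7, 38.9 and 12.3 CPM in ASO against 26.2, 65.2 and 45.7 CPM in NC. Its groups overlapped and it was not called (log2 -0.91, SE 0.45, edgeR adjusted p = 0.131), and 158 of its exon bases overlap those of the abundant ribosomal protein gene RPL4 on the opposite strand (1671 ± 51.7 CPM in ASO, 1940 ± 65.2 CPM in NC). SPDL1, which encodes Spindly, stood at 41.7, 74.6 and 48.1 CPM in ASO against 57.0, 79.7 and 58.4 CPM in NC. It was not called with all libraries (log2 -0.25, edgeR adjusted p = 0.413) and was called lower without ASO replicate 2 (0.0377).

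The SKA complex, which holds the NDC80 complex on shortening microtubules, had 0 of 3 genes called in either direction by edgeR, DESeq2 or limma-voom. Of all genes tested, these called 46.0%, 49.1% and 47.9% in either direction, so with only 3 genes the count says little. SKA1 stood at 2.24, 18.7 and 6.44 CPM in ASO and at 2.74, 22.7 and 2.12 CPM in NC. Replicate 2 was far above its group in both, so the SE of its log2 fold change of -0.01 was 1.004, the widest of all members. SKA2 stood at 21.1, 24.9 and 27.0 CPM in ASO against 25.6, 30.8 and 23.4 CPM in NC (log2 -0.13, SE 0.15, edgeR adjusted p = 0.524). SKA3 stood at 23.6, 30.2 and 26.7 CPM in ASO against 23.5, 26.4 and 23.7 CPM in NC (log2 0.13, SE 0.14, edgeR adjusted p = 0.465). With the GC and length offset SKA2 and SKA3 were called higher, at log2 0.40 and 0.43 (edgeR adjusted p = 0.0188 and 0.00434).

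Libraries numbered 2 carried more of these transcripts in both groups. ASO replicate 2 was the highest ASO library in 27 of 38 members (71.1%), against 38.4% of all genes tested. NC replicate 2 was the highest NC library in 27 of 38 (71.1%), against 38.4%. Both held for 22 members (57.9%), against 25.3% of all genes tested. The labels do not say that equal numbers share a batch or day.

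Fold changes moved with base composition. Across the 38 members, log2 fold change and GC content of the transcript had a Pearson r of 0.59 and a Spearman rho of 0.68, against 0.25 and 0.38 across 14015 genes tested that have a GC value; all points share the same 6 libraries. Members called lower had a median GC content of 40%, those not called 42.5%, and all genes tested 51.0%. Below 40% GC, 8 of 12 members were called lower, where 33.5% of all genes there were. From 40% to 45% GC it was 7 of 15 members, where 28.8% of all genes were. The median log2 fold change below 40% GC was -1.01 for members and -0.46 for all genes. From 40% to 45% GC the medians were close, -0.3 for members and -0.27 for all genes. From 45% to 50% GC, with 5 members, they were -0.14 and -0.06. With a per-library offset for GC content and length, 16 members were lower, 5 were higher and 17 were not called, with a median of -0.31, where 25.5% of all genes were called lower and 28.0% higher and the median was 0.00. The members called higher were then CENPP, CENPL, MIS12, SKA2 and SKA3.

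**Figure D5:**
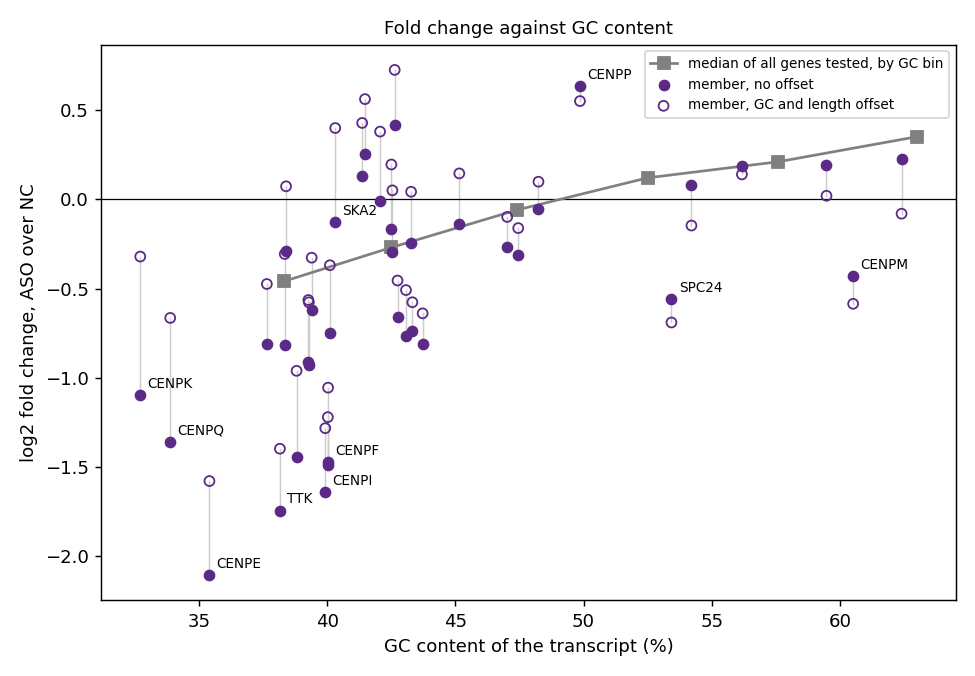
Log2 fold change of ASO over NC against GC content of the transcript in percent, filled points without and open points with the GC and length offset, joined for each member, and grey squares the median of all genes tested in 6 GC bins. CENPE and TTK stay far below 0 with the offset, whereas CENPK moves to -0.32 and SKA2 to 0.40.

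Of 26 further centromere and kinetochore genes, 12 were lower and 14 not called by edgeR, where 19.1% of all genes were lower. Their median log2 fold change was -0.35. That count rested on single libraries: it was 2 without NC replicate 1 or ASO replicate 3, where 12.1% and 12.4% of all genes were called lower, 4 without NC replicate 2, and 6 without NC replicate 3 or ASO replicate 1. SGO2, a shugoshin that protects centromeric cohesin, stood at 1.23, 2.02 and 2.56 CPM in ASO against 6.55, 8.32 and 3.31 CPM in NC (log2 -1.65, edgeR adjusted p = 0.0121). CLASP1, a microtubule plus-end protein, averaged 67.7 ± 7.41 CPM in ASO and 102 ± 2.38 CPM in NC (edgeR adjusted p = 0.00291). NUP133 and SEC13, of the nuclear pore subcomplex that also sits at kinetochores, had log2 fold changes of -0.51 and -0.34 (edgeR adjusted p = 0.0221 and 0.0226). The NUP133 call ended without any library but ASO replicate 2 (edgeR adjusted p = 0.0513 to 0.0850), and the SEC13 call without NC replicate 1 (0.0536) or ASO replicate 3 (0.0566).

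Of 9 checkpoint effector and silencing genes tested among 10 listed, 4 were lower and 3 higher, where 19.1% and 26.8% of all genes were. The count of lower genes was 2 without NC replicate 1, NC replicate 2, ASO replicate 1 or ASO replicate 3, since PPP1CC and PPP2R5A, phosphatase subunit genes, then lost their calls. MAD2L1BP, the p31comet adaptor, averaged 56.2 ± 2.75 CPM in ASO and 33.1 ± 0.77 CPM in NC, 1.70-fold higher (log2 0.76, SE 0.10, edgeR adjusted p = 6.80e-04). TRIP13, the ATPase it directs at MAD2, averaged 205 ± 7.98 CPM in ASO and 153 ± 3.69 CPM in NC, 1.34-fold higher (edgeR adjusted p = 0.00319). RAE1, a nuclear export factor with a checkpoint role, rose 1.499-fold (edgeR adjusted p = 0.00189), and TPR, the nuclear basket protein that binds MAD1, fell 1.87-fold (edgeR adjusted p = 0.00121). All 4 kept their calls with the GC and length offset.

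Subunits and partners of the anaphase-promoting complex, the target of the checkpoint, split into 4 lower, 2 higher and 11 not called of 17. Of all genes tested, 19.1% were called lower and 26.8% higher. The count of lower genes was 2 without NC replicate 1, NC replicate 2, ASO replicate 1 or ASO replicate 3, and 7 without ASO replicate 2. ANAPC5 and CDC26 had log2 fold changes of -0.56 and -0.66, both called lower. ANAPC1 was also called lower (log2 -0.32, edgeR adjusted p = 0.0177), a call that ended without any library but ASO replicate 2 (0.0508 to 0.0680). The count of higher genes was 1 without ASO replicate 1 or ASO replicate 3, where 23.5% and 21.9% of all genes were. It was 5 with the GC and length offset, where 28.0% of all genes were. FZR1, the activator of late mitosis and G1, averaged 69.9 ± 2.77 CPM in ASO and 36.7 ± 6.62 CPM in NC, 1.90-fold higher (edgeR adjusted p = 0.00150). Of 14 G2/M markers 7 were lower and 7 not called by edgeR, where 19.1% of all genes were lower. Their median was -0.44 and their summed level 1889 to 2093 CPM in ASO against 2692 to 2797 CPM in NC. HMMR, KIF20A, CKS2 and CCNB1 had log2 fold changes of -1.93, -0.84, -0.68 and -0.52, all called lower, CKS2 not with the GC and length offset. Of 14 G1/S markers 6 were lower and 2 higher (1 without ASO replicate 1 or ASO replicate 3), where 19.1% and 26.8% of all genes were. Their median was -0.30 and their summed level 2804 to 3107 CPM in ASO against 3093 to 3280 CPM in NC. CDT1 rose 1.62-fold, while MCM4, TYMS and PCNA had log2 fold changes of -0.60, -0.51 and -0.44, all called lower, PCNA not with the GC and length offset. DLGAP5, the spindle gene in the series title, stood at 6.97, 16.1 and 10.0 CPM in ASO against 33.0, 40.4 and 33.5 CPM in NC, within the range of fold changes of the members (log2 -1.69).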

How the data were processed

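The authors deposited estimated counts per gene for 6 RNA-seq libraries; per the submitters' processing notes FastQC, STAR, StringTie, DESeq2 and the hg38 build were used, with no versions or strand setting given in the sources used here. The commonest value above 0 was 4 in every library, so 4 counts may stand for about 1 fragment. Counts were rounded to whole numbers. Genes that passed edgeR's filter on low counts (14062; 5593 were removed) were scaled by TMM and tested with edgeR 4.0.16 (robust quasi-likelihood test, R 4.3.3), ASO against NC without a block, with Benjamini-Hochberg adjustment over all genes tested and a threshold of 0.05. Log2 fold changes are given with their standard errors, and group values as mean ± SD of 3 libraries. DESeq2 1.42.0, limma-voom (limma 3.58.1), other scalings and filters, counts divided by 4, a replicate block, leaving out each library, and an offset for GC content and length were alternatives. GC content and length are medians over basic protein-coding transcripts of GENCODE 29 and exist for 99.3% of genes. The test was checked on simulated data. It recovered 13.4% of genes changed by log2 0.5, 59.7% of those changed by log2 1 and 95.5% of those changed by log2 2, and called 0.02% of unchanged genes. A gene not called may therefore still have changed.

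The members and the other lists were chosen with earlier results of these data known. Values per library are given for up to 4 members of each role with the smallest edgeR p, for the member called higher and for the member of each role with the highest level, and from each other list up to 4 genes with the smallest edgeR p could be named; the remaining members and the ratios were picked out after their values were seen.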

Additional observations from a re-analysis of the deposited data

How the results depend on the processing

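Of the members, 18 were lower and 1 higher under RLE, upper-quartile and library-size scaling, without a filter, with a filter at a mean of 10 counts, with DESeq2, limma-voom, edgeR without the robust option, and counts divided by 4. With the GC and length offset 16 were lower and 5 higher, and with the replicate block and the offset 16 were lower and 4 higher. Leaving out 1 library at a time gave 12 to 19 members lower (12 without either NC replicate 2 or ASO replicate 3) and 1 to 2 higher; over all genes it gave 1755 to 3199 lower (1755 without NC replicate 1, 1764 without ASO replicate 3) and 3128 to 3927 higher (12.1% to 22.4% of genes lower), against 2692 and 3772 with all libraries.

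Signs turned only in members not called with all libraries, and the cause was not tested. With the offset alone and with the replicate block as well, the log2 fold changes were 0.072 and 0.05 for CENPC, 0.195 and 0.125 for CENPH, 0.05 and 0.022 for CENPN, -0.15 and -0.15 for CENPO, 0.145 and 0.14 for CENPW, 0.40 and 0.39 for SKA2 (both called higher), -0.081 and -0.079 for MAD1L1, and 0.042 and 0.029 for SPDL1. NSL1 stood at 0.10 with the offset. SKA1 stood at 0.30 with limma-voom, 0.002 with counts divided by 4, 0.31 with the block, 0.38 with the offset and 0.70 with both. Leaving out libraries gave -0.38 to 0.11 for CENPH, -0.40 to 0.29 for NSL1 and -1.10 to 1.93 for SKA1.

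The labels do not say that equal replicate numbers share a batch, and the libraries were treated as unpaired, since correlations of same-numbered libraries' deviations were 0.052, 0.188 and 0.015 and not all over 0.1. The pair numbered 2 had the highest correlation, 0.188, against -0.065 to -0.142 for either library with the others. Deviations from a group mean cancel within the group, so those negative values are tied to the positive one and add nothing separate. Whether the pair shares a batch was not tested. With the replicate block 19 members were lower and 1 higher, and over all genes 3494 lower (24.8%) and 3924 higher; 18 of the 26 further centromere and kinetochore genes and 7 of the 17 genes of the anaphase-promoting complex were then lower, against 12 and 4 without it. The lowest count of any member was 72 (CENPU).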
